A study of Drosophila melanogaster with 4 samples.

Results

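Attacins, cecropins and diptericins are small secreted peptides with which the fly attacks bacteria. The deposited transcripts hold 10 such genes, picked by name from 14029 genes: AttA, AttB, AttC and AttD, CecA1, CecA2, CecB and CecC, and DptA and DptB. They were compared between male third-instar larvae that carry an Inr-a duplication, labelled pcf11/+, and male third-instar larvae of the wild type, labelled +/+, with 2 libraries per genotype. Inr-a is also called Pcf11, and its product takes part in ending transcription at the 3′ ends of genes. The larvae with the duplication had Canton S mothers and fathers of the genotype w[a]; Pcf11Dup/CyO GFP, and those that did not fluoresce were taken; the wild type larvae came from the Canton S stock itself. The added Inr-a copy and the other chromosomes of the paternal stock therefore cannot be told apart in this comparison. Each library is RNA from a pool of whole larvae, so fewer cells of a type and less RNA per cell cannot be told apart either.

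In the fly, these peptide genes are known as the main output of the Imd pathway. The receptor PGRP-LC binds the peptidoglycan of Gram-negative bacteria, and the signal passes through imd, Fadd, Dredd, Tak1 and the IKK complex to the NF-κB factor Relish, which is cleaved, enters the nucleus and switches the peptide genes on. After infection the fat body, the larval counterpart of liver and adipose tissue, releases the peptides into the hemolymph, and the gut and other epithelia make them locally. Attacins and diptericins are glycine-rich peptides that act mainly on Gram-negative bacteria, while cecropins are short helical peptides that break bacterial membranes.

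The genes lie in tight groups. On chromosome 2R, AttA (FBgn0012042) spans 14747362 to 14748215 and AttB (FBgn0041581) 14749223 to 14750165, with 1007 bases between them, both on the forward strand (coordinates of BDGP6.54). AttC (FBgn0041579) stands alone on 2R from 13393705 to 13394667. DptA (FBgn0004240), from 18865765 to 18866260, and DptB (FBgn0034407), from 18867391 to 18867895, are 1130 bases apart on 2R. The cecropin cluster takes up 6065 bases of 3R and holds CecA1 (FBgn0000276, from 30210874 to 30211273), CecA2 (FBgn0000277, from 30212156 to 30212568), CecB (FBgn0000278, from 30213315 to 30213797, the only member on the reverse strand) and CecC (FBgn0000279, from 30216484 to 30216938). AttD (FBgn0038530) lies by itself on 3R from 17625268 to 17626086, and unlike the other attacins its product lacks a signal peptide. All but AttB have 1 transcript in the deposited values, and all but DptA have an intron.

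The values are CPM, a library's counts scaled to a common total of 1000000. Only the mean CPM of each genotype was deposited. The counts behind it were worked back, because just 1 pair of whole counts gives the deposited mean of every member transcript. The libraries hold 15423445 and 14084653 counts for the Inr-a duplication and 12558720 and 11304266 counts for the wild type; library A is the deeper one of its genotype, a name that carries no replicate number of the study, and those of the Inr-a duplication are called the duplication libraries. In these libraries 10 counts are 0.648 and 0.710 CPM in the Inr-a duplication and 0.796 and 0.885 CPM in the wild type. Transcripts of 16 ribosomal RNA pseudogenes took 0.321% of the counts of duplication library A but 0.0110% of library B, and 0.00461% and 0.00862% in the wild type. Pcf11 itself had 1285 and 1338 counts in the Inr-a duplication, against 758 and 656 counts in the wild type, a log2 fold change of 0.62 (adjusted p = 0.180 from limma, unadjusted p = 0.0244).

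The peptide genes were expressed at a low to moderate level in both genotypes. Together they took 68.8 ± 47.5 CPM in the Inr-a duplication and 75.1 ± 1.02 CPM in the wild type (SD, n = 2 each). The sum was 102.4 and 35.1 CPM in duplication libraries A and B, and 74.4 and 75.8 CPM in wild type A and B. Thus the wild type libraries were nearly equal, and the duplication libraries lay one above and one below both of them.

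**Figure D1:**
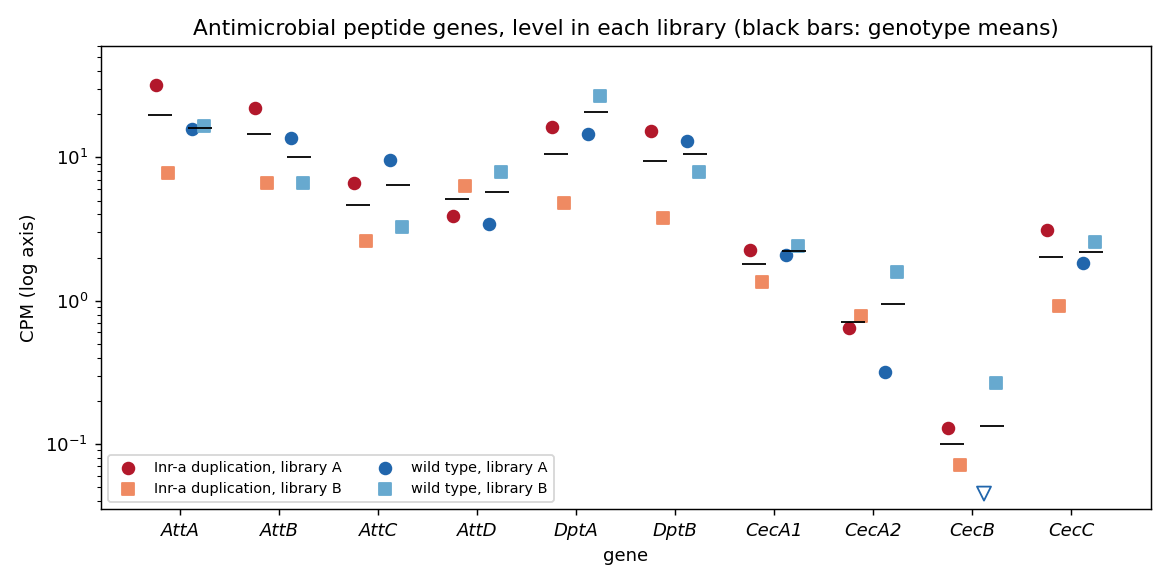
CPM of the 10 peptide genes (log axis) in each of the 4 libraries, Inr-a duplication in red and wild type in blue, with black bars at the genotype means; the open triangle is a library with 0 counts. In every gene the range of one genotype overlaps that of the other, and duplication library A lies far above library B for AttA, AttB, DptA and DptB.

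Levels of different genes were compared per kilobase of transcript, as CPM per kb averaged over the 4 libraries. The order was DptA (31.5 CPM per kb), AttA (22.8), DptB (22.2), AttB (15.3), AttD (7.28), AttC (6.15), CecA1 (5.96), CecC (5.46), CecA2 (2.35) and CecB (0.274). DptA stood at percentile 79.1 of all genes on this scale and CecB at percentile 14.9. From library to library DptA ranged from 9.73 to 53.9 CPM per kb, AttA from 9.89 to 40.5 and CecC from 2.39 to 8.06. The ranges of neighbours in the order overlapped for each pair, down to CecA2 (0.897 to 4.49) and CecB (0 to 0.624), the only neighbours whose ranges did not meet.

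The question of the comparison is whether an added Inr-a copy changes expression. No peptide gene passed the test between genotypes. With limma on log2 of TMM-scaled CPM plus 0.5 and Benjamini-Hochberg adjustment over 11540 genes, 0 of the 9 members tested were called, while 2.23% of all genes tested were called. Before adjustment, p was below 0.05 for 1 of 9, DptA, and for 20.8% of all genes, and weighting by voom in place of the trend also called 0. The genotypes did not overlap, with both libraries of one above both of the other, for 53.3% of the genes tested but for 0 of the 9 members. CecB, the tenth, had too few counts to be tested. The median log2 fold change was -0.21 over the 9 members and 0.020 over all genes. With 2 libraries each, 0.333 is the smallest two-sided p that exact permutation allows, and the members gave 0.667 (AttC and DptA) or 1.

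Of the 9 members tested, DptA had the most negative log2 fold change. It had 250 and 68 counts (16.2 and 4.83 CPM) in duplication libraries A and B, against 184 and 302 counts (14.7 and 26.7 CPM) in wild type A and B. Duplication library B was the lowest of the 4 and wild type library B the highest, while both libraries A lay close together, so the groups overlapped. The mean was 10.5 ± 8.05 CPM in the Inr-a duplication and 20.7 ± 8.53 CPM in the wild type (SD, n = 2 each), so the ratio was 0.509. On the log2 scale this was -1.07 (95% interval -1.90 to -0.25), with an adjusted p = 0.141 from limma (unadjusted p = 0.0132). The interval and p rest on limma's spread, which draws on all genes tested beside the 4 libraries of DptA.

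The result for DptA turned on single libraries. With 1 library left out, the genotype that keeps 1 library adds nothing to the spread, which comes from the other genotype and from limma's estimate over all genes, so the lone library is assumed to vary like the others. Without duplication library A the log2 fold change was -1.98 (adjusted p = 4.75e-05 from limma), and without wild type library A it was -1.49 (adjusted p = 0.00313). When duplication library B was dropped it was -0.18, and when wild type library B was dropped -0.67, neither past the threshold.

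DptB, its neighbour, had 234 and 53 counts (15.2 and 3.76 CPM) in duplication libraries A and B, against 164 and 90 counts (13.1 and 7.96 CPM) in wild type A and B. The Inr-a duplication thus held both the highest and the lowest library. The ratio of means was 0.901 and the log2 fold change -0.36 (95% interval -1.24 to 0.52, adjusted p = 0.654 from limma). Without duplication library A the log2 fold change was -1.38 (adjusted p = 0.0213), and without library B it was 0.65. Summed, the diptericins had 31.4 and 8.59 CPM in the Inr-a duplication and 27.7 and 34.7 CPM in the wild type, with a log2 fold change of -0.86 (adjusted p = 0.217), and -1.85 (adjusted p = 4.10e-05) without duplication library A.

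Among the attacins, AttA and AttB were the only members with a higher mean in the Inr-a duplication. AttA had 494 and 110 counts (32.0 and 7.81 CPM) in duplication libraries A and B, against 198 and 186 counts (15.8 and 16.5 CPM) in wild type A and B. The wild type pair sat between the libraries of the Inr-a duplication. AttA averaged 19.9 ± 17.1 CPM in the Inr-a duplication and 16.1 ± 0.487 CPM in the wild type (SD, n = 2 each), and the log2 fold change was 0.018 (95% interval -0.83 to 0.87, adjusted p = 0.985 from limma). The ratio of means was 1.24, and it rested on single libraries: leaving out duplication library B gave a log2 fold change of 1.07, and leaving out library A gave -1.05. On library sizes alone, without TMM, it was -0.014, and without wild type library A it was -0.0093.

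AttB had 344 and 94 counts (22.3 and 6.67 CPM) in duplication libraries A and B, against 171 and 75 counts (13.6 and 6.63 CPM) in wild type A and B. Library A was the higher in both genotypes, and both libraries B were nearly equal. The ratio of means was 1.43 and the log2 fold change 0.38 (95% interval -0.47 to 1.24, adjusted p = 0.617 from limma), with -0.54 without duplication library A, 1.28 without library B and -0.13 without wild type library B. AttB has 2 transcripts that start at the same base, the longer of which runs 91 bases further at its 3′ end. The shorter, FBtr0087438, averaged 13.0 CPM in the Inr-a duplication and 7.14 CPM in the wild type, a ratio of 1.82. Its counts were 318 and 75 in duplication libraries A and B, against 145 and 31 in wild type A and B, and the ratio was 0.745 without duplication library A and 1.12 without wild type library B. The longer, FBtr0300942, averaged 1.52 CPM in the Inr-a duplication and 2.98 CPM in the wild type, a ratio of 0.509, which lay between 0.390 and 0.733 with 1 library left out. It made up 7.56% and 20.2% of the AttB counts in duplication libraries A and B, against 15.2% and 58.7% in wild type A and B, so the groups overlapped and wild type library B stood highest. Tested transcript by transcript with limma, the shorter had an adjusted p = 0.727 and the longer an adjusted p = 0.602. Reads outside those 91 bases match both transcripts, so the quantifier infers the split between them. Use of the 3′ ends was not measured directly, and a shift between them was not tested.

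AttA and AttB are close paralogs, and reads that match both are divided between them by the quantifier, so their sum is the safer value. It was 54.3 and 14.5 CPM in duplication libraries A and B and 29.4 and 23.1 CPM in wild type A and B. Here, too, the wild type libraries lay between those of the Inr-a duplication, and the log2 fold change was 0.14 (95% interval -0.68 to 0.96, adjusted p = 0.870 from limma). AttB ends 110770 bases before the Pcf11 gene itself begins on 2R. All 20 genes between them were tested, 9 had a positive log2 fold change and the median was -0.0060. By limma 0 were called, against 2.23% of all genes tested. Before adjustment 3 were at p below 0.05, against 20.8% of all genes tested.

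AttC had 102 and 37 counts (6.61 and 2.63 CPM) in duplication libraries A and B, against 121 and 37 counts (9.63 and 3.27 CPM) in wild type A and B. In both genotypes library A lay well above library B. The log2 fold change was -0.36 (95% interval -1.24 to 0.52, adjusted p = 0.652 from limma). It turned to 0.30 without duplication library B and to 0.36 without wild type library A.

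AttD had 60 and 89 counts (3.89 and 6.32 CPM) in duplication libraries A and B, against 43 and 90 counts (3.42 and 7.96 CPM) in wild type A and B. It ran the other way from AttC: library B was the higher one in both genotypes. The log2 fold change was -0.047 (95% interval -0.80 to 0.70, adjusted p = 0.957 from limma), with 0.19 without duplication library A and 0.49 without wild type library B.

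The cecropins had few counts. CecA1 had 35 and 19 counts in duplication libraries A and B, against 26 and 27 counts in wild type A and B, and CecA2 had 10 and 11 against 4 and 18. CecA1 and CecA2 are near-identical copies, so they were also summed, to 2.92 and 2.13 CPM in the Inr-a duplication and 2.39 and 3.98 CPM in the wild type. The groups overlapped, and the log2 fold change of the sum was -0.23 (95% interval -0.99 to 0.52, adjusted p = 0.744 from limma). It was 0.015 without duplication library B and 0.067 without wild type library B.

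CecC had 48 and 13 counts (3.11 and 0.923 CPM) in duplication libraries A and B, against 23 and 29 counts (1.83 and 2.57 CPM) in wild type A and B. As for AttA, the Inr-a duplication held the highest and the lowest library, and the log2 fold change was -0.21 (95% interval -1.09 to 0.68, adjusted p = 0.815 from limma), with 0.52 without duplication library B. CecB had 2 and 1 counts in the Inr-a duplication, against 0 and 3 counts in the wild type. The count of 0 in wild type library A allows up to 0.239 CPM, by counting error alone, so a difference in CecB was not detectable at this depth. All 4 cecropins together had 6.16 and 3.12 CPM in the Inr-a duplication and 4.22 and 6.81 CPM in the wild type, with a log2 fold change of -0.23 (adjusted p = 0.750 from limma).

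**Figure D2:**
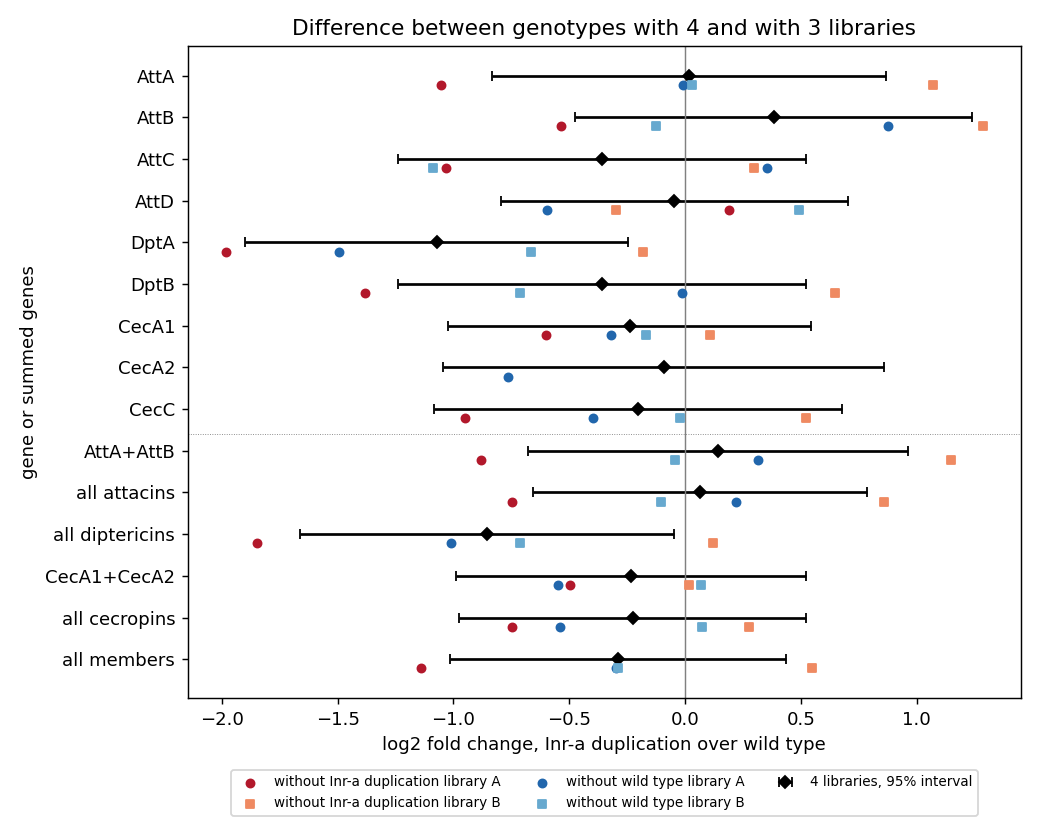
Log2 fold change (Inr-a duplication over wild type) of the 9 members tested and of 6 sums; black diamonds with bars are the estimate and 95% interval from 4 libraries, and coloured points the estimates with 1 library left out. The points without duplication library A and without library B lie on opposite sides of 0 for AttA, AttB and DptB, among others; CecA2 passed the filter on low counts with only 1 of the 4 libraries left out.

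For the summed members, the larger difference lay within the Inr-a duplication and not between genotypes. There, library A was 4.10 times library B for AttA, 4.03 times for DptB, 3.37 times for CecC, 3.36 times for DptA, 3.34 times for AttB and 2.52 times for AttC. For CecA1 it was 1.68 times, and AttD went the other way, at 0.616. Of the members with counts in all 4 libraries, AttC, AttD and CecA2 differed more between the wild type libraries. There, library A over library B was 2.94 for AttC, 0.430 for AttD and 0.200 for CecA2 (0.830 in the Inr-a duplication). Of the 8 members with at least 100 counts over the 4 libraries, 6 had library A at least 2-fold over library B on log2 of CPM plus 0.5, as did 0.412% of all 10688 genes with that many counts (44 genes). Library B was at least 2-fold over library A for 0 of the 8 and for 2.77% of all genes. With TMM scaling the members gave the same counts, and the shares of all genes were 0.777% and 1.84%. Counting down from the gene with the highest A over B, 9 genes stood at or above AttA, 10 at or above DptB, 11 at or above AttB, 12 at or above DptA, 19 at or above CecC and 29 at or above AttC. The members were not chosen by this contrast, but it was noticed in these libraries and is given as a description, with no test. A difference between 2 pools of larvae of one genotype has no replicate.

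Between the wild type libraries the members did not move together. On log2 of CPM plus 0.5, library A was at least 2-fold over library B for 1 of the 8 members, AttC. The same held for 1.79% of the 10688 genes, and library B was at least 2-fold over library A for AttD. AttB fell just short on this scale, with a log2 value of 0.984. On CPM alone, wild type library A was 2.05 times library B for AttB. DptA was higher in wild type library B (26.7 CPM against 14.7 CPM in library A), while DptB was higher in library A (13.1 CPM against 7.96 CPM in library B), although the genes are neighbours. Over the 10 members, duplication library A was the highest of the 4 libraries for 4 genes and library B the lowest for 6, while wild type library B was the highest for 5.

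**Figure D3:**
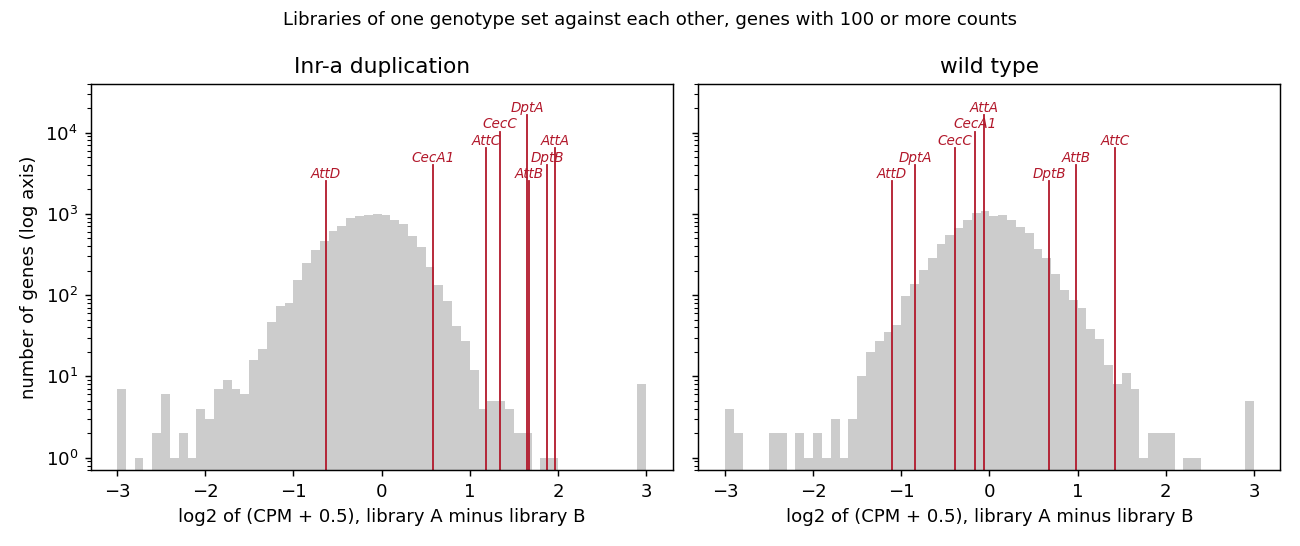
Histograms of library A minus library B, on log2 of CPM plus 0.5, for the 10688 genes with at least 100 counts (values past 3 are drawn at 3, number of genes on a log axis), for the Inr-a duplication at left and the wild type at right, with red lines at the 8 members. In the Inr-a duplication 6 of the 8 members lie at the far right, while in the wild type they are spread over both sides.

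The 8 genes above AttA in the Inr-a duplication contrast, named here after their values were seen, were 5 ribosomal RNA pseudogenes, a histone gene (His2A:CG33835), CG32857 and IMPPP. IMPPP and CG33470 are listed in the current annotation as BaraA2 and BaraA1, which encode precursors of further immune-induced peptides. IMPPP had 1291 and 0 counts in duplication libraries A and B, against 59 and 0 in wild type A and B, while CG33470 had 697 and 549, against 970 and 1035. Since these copies are near-identical, their sum is again the safer value: 128.9 and 39.0 CPM in the Inr-a duplication, against 81.9 and 91.6 CPM in the wild type. With library A at 3.31 times library B in the Inr-a duplication and 0.895 times in the wild type, the pair had the same order of libraries as AttA.

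Of 29 other antimicrobial peptide and immune effector genes, 13 passed the filter on low counts, and limma called 0 of them. Before adjustment, 1 (BomS3) was higher and 2 (Def and BaraA1) were lower at p below 0.05. Of all 11540 genes tested, 1404 were higher and 994 lower at that level (20.8% in either direction). BaraA1 is counted here alone, whereas in its sum with BaraA2 the genotypes overlapped. The most abundant was the drosomycin-like gene Drsl5, with 400.9 and 415.3 CPM in duplication libraries A and B, against 239.9 and 370.7 CPM in wild type A and B (adjusted p = 0.327). On TMM-scaled CPM, duplication library A was above library B in 12 of the 13 (11 without TMM), against 5747 of all 11540 genes tested (4313 without TMM). Dro, the drosocin gene, had 34 and 7 counts in the Inr-a duplication, against 12 and 60 in the wild type. Def, the defensin gene, had 14 and 3 counts in the Inr-a duplication, against 30 and 17 in the wild type, with a log2 fold change of -1.23 (adjusted p = 0.123 from limma, unadjusted p = 0.00935). Dro, Def, BomS3 and BaraA1 were named after their values were seen.

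Genes of the Imd pathway itself were not called either. None of the 17 genes from the receptors to Relish and none of the 16 genes of negative regulators was called by limma. Before adjustment, p was below 0.05 for 0 higher and 1 lower gene (Diap2) among the first. Among the second it was so for 3 higher (dnr1, CYLD and nub) and 0 lower genes. Of all 11540 genes tested it was so for 1404 higher and 994 lower genes (20.8% in either direction). Diap2, dnr1, CYLD and nub were named after their values were seen. The medians of the log2 fold change were 0.25 and 0.40, against 0.020 over all genes tested. PGRP-LC, the receptor, had 37.6 and 40.4 CPM in duplication libraries A and B, against 32.3 and 31.2 CPM in wild type A and B. The adaptor gene imd had 31.1 and 30.4 CPM in the Inr-a duplication, against 33.0 and 38.6 CPM in the wild type. Rel, which encodes Relish, had 93.8 and 87.4 CPM in the Inr-a duplication, against 78.3 and 56.3 CPM in the wild type, a log2 fold change of 0.475 (adjusted p = 0.304 from limma).

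By mean CPM over both genotypes, the most abundant gene among the receptors to Relish was eff (in the wild type alone, Diap2), which encodes a ubiquitin-conjugating enzyme, with 112.8 and 197.4 CPM in the Inr-a duplication, against 102.4 and 153.1 CPM in the wild type (adjusted p = 0.590 from limma). Among the negative regulators, pirk, whose product acts on the receptor, had 14.7 and 19.7 CPM in the Inr-a duplication, against 9.87 and 13.6 CPM in the wild type (log2 fold change 0.56, adjusted p = 0.263). PGRP-SC1a, a peptidoglycan-cleaving amidase of the gut, was the most abundant of them, with 783.2 and 462.6 CPM in the Inr-a duplication, against 616.5 and 284.1 CPM in the wild type (adjusted p = 0.356). Within the Inr-a duplication, the median of library A minus library B, on log2 of TMM-scaled CPM plus 0.5, was 0.027 over the genes from the receptors to Relish and 0.029 over the negative regulators, against 1.90 over the 2 diptericins, 1.56 over the 4 attacins, 0.69 over the 3 cecropins tested and -0.0021 over all genes tested.

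Of the 19 Toll pathway genes, which serve the response to Gram-positive bacteria and fungi, limma called 0, and the median log2 fold change was 0.25. Before adjustment, 4 (spz, Tl, Gprk2 and dl, named after their values were seen) were higher and 0 lower at p below 0.05. Of all 11540 genes tested, 1404 were higher and 994 lower at p below 0.05 (20.8% in either direction). GNBP3, a receptor for fungal glucans and the most abundant of them, had 180.8 and 177.4 CPM in the Inr-a duplication, against 200.1 and 133.0 CPM in the wild type (adjusted p = 0.760). Of 9 JAK-STAT and stress response genes tested, 1 was higher and 0 were lower by limma, against 199 higher and 58 lower of all 11540. Before adjustment, p was below 0.05 for 5 higher (TotA, and hop, Stat92E, Tep1 and Tep2, named after their values were seen) and 0 lower genes, and the median log2 fold change was 0.72. The gene called, TotA, encodes a secreted stress peptide and had 92.5 and 131.1 CPM in the Inr-a duplication, against 46.4 and 63.4 CPM in the wild type, a log2 fold change of 1.05 (adjusted p = 0.0386). The most abundant of that list, vir-1, had 242.3 and 253.6 CPM in the Inr-a duplication, against 161.6 and 260.0 CPM in the wild type (adjusted p = 0.548).

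**Figure D4:**
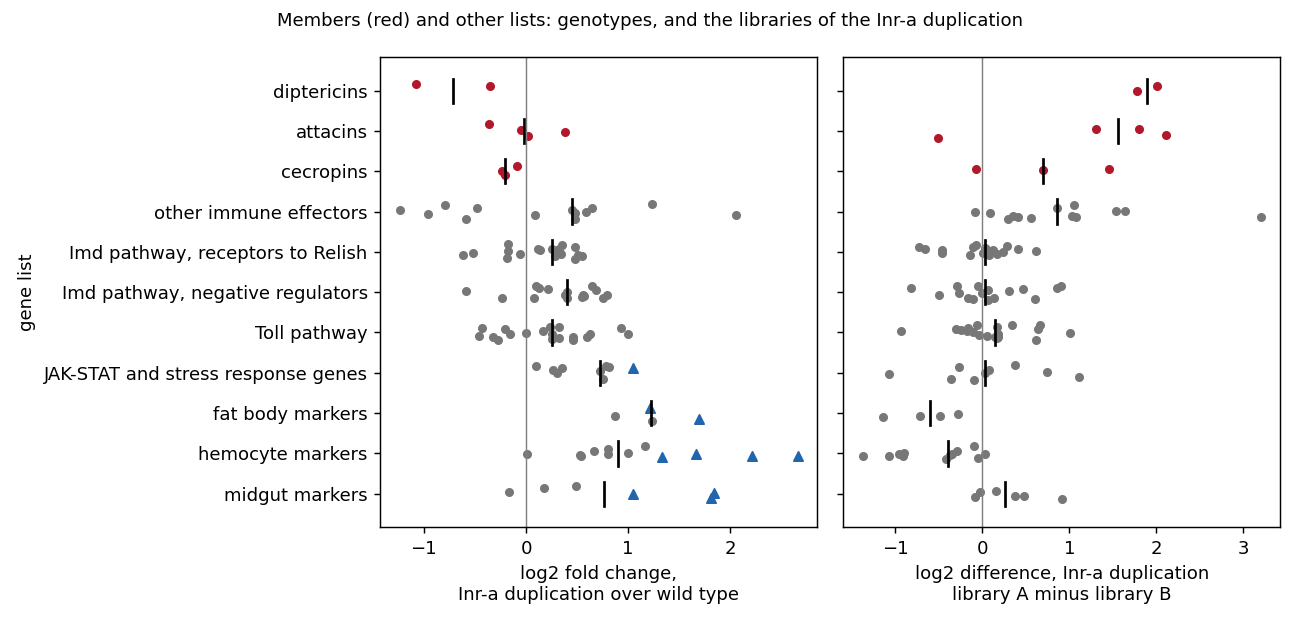
Left, log2 fold change of each tested gene (Inr-a duplication over wild type) by gene list; right, duplication library A minus library B on log2 of TMM-scaled CPM plus 0.5 (1 value past 3.2 is drawn there). Red points are the peptide genes, grey points other genes, blue triangles genes with an adjusted p below 0.05 and black lines medians; the peptide genes lie between -1.07 and 0.38 at left, and 7 of 9 lie to the right of 0 at right.

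Some markers of the tissues that make the peptides differed between genotypes. Of all 11540 genes tested, limma called 199 higher and 58 lower (2.23% in either direction). Of the 10 fat body markers, 6 were too abundant for counts per library, and 2 of the other 4 were higher (apolpp and Desat1, with log2 fold changes of 1.70 and 1.22 and adjusted p-values of 0.00331 and 0.0187 from limma). The 4 summed to 954.7 and 1855 CPM in duplication libraries A and B, against 600.9 and 475.0 CPM in wild type A and B. Fbp1, the most abundant marker of the list by the mean over both genotypes (in the Inr-a duplication alone, Lsp2), had a deposited mean of 21200 CPM in the Inr-a duplication and 28990 CPM in the wild type. The others without counts per library, named after their values were seen, went both ways. Their ratios of means were 0.886 (Fbp2), 1.12 (Lsp2), 3.16 (Lsp1alpha), 2.12 (Lsp1beta) and 4.54 (Lsp1gamma). Of 12 hemocyte markers, 4 were higher and 0 lower (PPO1, PPO2, Hml and NimC1), with log2 fold changes of 2.66, 2.22, 1.67 and 1.33 and adjusted p-values from 1.04e-05 to 0.0351 in limma. In wild type A and B, PPO1 had 18.2 and 10.1 CPM and PPO2 40.7 and 18.5 CPM. Hml had 28.7 and 9.73 CPM there, and NimC1 5.49 and 4.87 CPM. Values with 1 library left out are given for the members and their sums, not for markers. PPO1 and PPO2 encode prophenoloxidases of crystal cells. Another crystal cell marker of the list, lz (named after its value was seen), averaged 1.33 CPM in the Inr-a duplication and 1.35 CPM in the wild type. Its log2 fold change was 0.011 (adjusted p = 0.991 from limma). The 12 summed to 591.8 and 837.4 CPM in the Inr-a duplication, against 437.5 and 265.7 CPM in the wild type, and Pxn, the most abundant over both genotypes (in the Inr-a duplication alone, PPO2), had an adjusted p = 0.293. Of 10 midgut markers 6 were tested and 3 were higher (betaTry, thetaTry and Mal-A1, digestive enzymes with log2 fold changes of 1.84, 1.04 and 1.82), with sums over these 6 of 2293 and 1765 CPM in the Inr-a duplication, against 1471 and 1324 CPM in the wild type. Jon99Cii, a gut protease and the most abundant of them, had a deposited mean of 11410 CPM in the Inr-a duplication and 7051 CPM in the wild type. Amy-p, a midgut marker named after its value was seen, had a log2 fold change of -0.17 (adjusted p = 0.810 from limma). Before adjustment, p was below 0.05 for 4 fat body, 7 hemocyte and 3 midgut markers, all higher. Of all 11540 genes tested it was so for 1404 higher and 994 lower genes (20.8% in either direction). The medians of the log2 fold change over the markers tested were 1.23, 0.90 and 0.77, against 0.020 over all genes tested. No marker of the 3 lists was at 0 in both genotypes.

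Across the duplication libraries the fat body and hemocyte markers had the other order. On TMM-scaled CPM, library A was above library B in 0 of the 4 fat body markers, in 1 of the 12 hemocyte markers (Pxn, which turns without TMM) and in 4 of the 6 midgut markers, where 7 of the 9 peptide genes tested had library A above library B. The same held for 5747 of all 11540 genes tested. Between the wild type libraries, A was above B in 3 of 4 fat body, 9 of 12 hemocyte and 3 of 6 midgut markers. There it was so for 2 of 4 attacins, 1 of 2 diptericins, 0 of 3 cecropins tested and 5699 of all genes. The hemocyte median of A minus B was 1.04 in the wild type and -0.39 in the Inr-a duplication. The part that differences in tissue content, ribosomal RNA or larval handling between the pools had in the peptide values was not tested.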

How the data were processed

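RNA from pools of whole male larvae was sequenced in 2 libraries per genotype. The authors trimmed the reads, quantified transcripts with Salmon (version 1.4.0 in the submitters' processing notes, build BDGP6), ran tximport, and for each of 30090 transcripts deposited 1 mean CPM per genotype. A further deposited column, the authors' ratio of both means, was not used.

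With library totals fitted from the low values, each mean was searched for whole counts that give it. A single pair was found for 99.7% of the transcripts above 0 in the Inr-a duplication and 99.4% in the wild type, and several for the rest, all above 1000 CPM. Of 3034 and 3516 means between 1 and 100 CPM that were moved at random, 0% had a pair, and of those between 100 and 1000 CPM 2.25% and 1.36% did. The 128 genes with several pairs, none a member, were left out of tests. The recovery and the test were tested on simulated data.

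Transcripts were summed by symbol and chromosome, and genes kept with 10 counts at the median library size in 2 libraries and 15 in all. Genotypes were compared with limma 3.58.1 (R 4.3.3, trend) after TMM scaling, on log2 CPM with 0.5 added, p-values being adjusted by Benjamini-Hochberg over 11540 genes with a threshold of 0.05. The study's DESeq2 was not run on the recovered counts. TMM factors, computed directly, were 0.942 and 1.04 for the Inr-a duplication and 1.01 and 1.01 for the wild type. The paper calls the libraries of a genotype biological replicates but does not say whether the larval pools came from separate cultures. The p-values therefore measure the spread between pools only.

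Positions and transcript lengths are from Ensembl release 115 (BDGP6.54), which holds 29964 of the transcripts, all on the chromosome the deposited values give. This is a later update of the BDGP6 that the submitters name. The 95% intervals and p-values rest on limma's estimate of the spread between libraries, which joins a gene's own 4 libraries with all genes tested. They can therefore be narrower than a member's own libraries would give. For AttA, the values with 1 library left out reached from -1.05 to 1.07, beyond its interval of -0.83 to 0.87. The limit from a count of 0 (3 counts) covers counting error only. The members and gene lists were chosen with earlier results of these data known. The genes named are all members, genes of the lists past the threshold, the most abundant gene of each list over both genotypes, and Rel, imd, PGRP-LC and pirk, beside others that the text gives as named after their values were seen. Alternatives covered the scaling, the pseudocount, the filter, voom weights, single transcripts and each library left out.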

Additional observations from a re-analysis of the deposited data

How the results depend on the processing

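The number of members called by limma was 0 under every setting with 4 libraries: library size or median of ratios in place of TMM, a pseudocount of 0.1 or 2 CPM, no filter, voom weights and single transcripts. It was 0 to 2 with 1 library left out. The number of all genes called was 257, against 76 with library size, 59 without the filter, 0 with single transcripts and 120 to 1031 with 1 library left out. Of 98 log2 fold changes of members and sums under the other settings, 96 kept their direction and their side of the threshold, and 2 turned, AttA to -0.014 with library size and CecA2 to 0.022 with voom. The lowest adjusted p among them was 0.130. Adding 0.5 CPM to both means moved none of the 10 ratios by more than the spread between libraries.

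Leaving out 1 library changed more: 21 of 57 values turned and 5 passed the threshold. The log2 fold change ranged from -1.05 to 1.07 for AttA, -0.54 to 1.28 for AttB, -0.88 to 1.15 for their sum, -1.09 to 0.36 for AttC, -0.60 to 0.49 for AttD, -0.75 to 0.86 for all attacins, -1.98 to -0.18 for DptA, -1.38 to 0.65 for DptB, -1.85 to 0.12 for both diptericins, -0.60 to 0.11 for CecA1, -0.55 to 0.067 for CecA1 and CecA2, -0.95 to 0.52 for CecC, -0.75 to 0.28 for all cecropins and -1.14 to 0.55 for all members together. The cause of these turns was not tested. The sum of all members was called only without duplication library A (adjusted p = 0.0105). In these fits 1 genotype has a single library, so the spread comes from the other genotype and from limma's estimate over all genes, and the lone library is assumed to vary like the others.

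No paired analysis was possible because the deposited means carry no replicate numbers, so that the recovered libraries cannot be matched by number across genotypes. Depth limits the cecropins most, with at most 48 counts per gene and library.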

Other observations

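The makeup of the peptide genes, in shares of their summed CPM, also varied within genotypes. AttA and AttB held 31.3% and 21.8% of it in duplication library A and 22.2% and 19.0% in library B, against 21.2% and 18.3% in wild type library A and 21.7% and 8.75% in wild type library B. DptA held 15.8% and 13.7% in duplication libraries A and B, against 19.7% and 35.2% in wild type A and B. These shares are not corrected for transcript length. Per kilobase, DptA was the highest peptide gene in both wild type libraries, at 29.5 CPM per kb in A and 53.9 in B. AttD, the attacin without a signal peptide, held 18.0% in duplication library B and 3.80% in library A, against 4.60% and 10.5% in wild type A and B.

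Several small secreted peptides of the Bomanin family, which act downstream of Toll, had few counts and the same order of duplication libraries, and were picked after their values were seen. BomS1 had 54 and 4 counts in duplication libraries A and B, against 8 and 5 in wild type A and B. BomBc2 had 34 and 6 counts in the Inr-a duplication, against 4 and 13 in the wild type. BomT1 had 15 and 2 counts in the Inr-a duplication, against 0 and 0 in the wild type. BomS2, BomS3, BomS5 and BomT2 also had more counts in duplication library A. BomS6 was nearly level at 4 and 3 counts, BomBc1 had 0 and 1, and BomS4, BomBc3 and BomT3 had 0 and 0. The drosomycin gene Drs went the other way, with 130.3 and 152.4 CPM in duplication libraries A and B. These genes, too, were named after their values were seen. Anp, also picked after its value was seen, encodes andropin, a peptide of the adult male ejaculatory duct, and had 0 counts in all 4 libraries.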
